A study of Rattus norvegicus with 96 samples.

Results

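RNA of the nucleus accumbens shell (NAc shell) was compared in ethanol-drinking rats 6 h and 1 h after their last drinking session. By the labels, 20 of the 96 arrays of the series belonged here, 10 taken at 6 h and 10 at 1 h. All came from P rats, an alcohol-preferring line bred for high voluntary ethanol intake, that had been given limited access to ethanol, which the series title calls binge drinking. Each array held amplified total RNA of this brain region on an Affymetrix rat chip. A further 5 NAc shell arrays at 6 h and 7 at 1 h came from P rats given water and no ethanol, and 11 ethanol and 5 water arrays were taken at 24 h. The central nucleus of the amygdala (CeA) of ethanol rats gave 10 arrays at 6 h and 11 at 1 h. The labels give neither sex nor age, nor the amount drunk, and do not say whether arrays of 1 group came from separate rats. The limma p values of the NAc shell thus measure the spread between arrays, pooled within groups over all 48 NAc shell arrays unless stated. The labels give the hours since the last session but no clock hour, so time since drinking and time of day cannot be told apart.

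The NAc shell is the part of the ventral striatum where dopamine from the midbrain meets cortical and limbic input, and most of its neurons are medium spiny neurons that use GABA. RNA there follows the day in several ways. A molecular clock of activators (Clock, Npas2, Bmal1) and repressors (Per, Cry and Nr1d genes) runs in most cells and drives output genes such as Dbp. Corticosterone, the main glucocorticoid of the rat, is secreted in a daily rhythm and after stress, and acts through a receptor that induces genes such as Sgk1, Pdk4 and Fkbp5. Neuronal activity induces immediate early genes within minutes.

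The values were log2 intensities of probe sets, and 1 unit is a doubling. Array medians of the 20 arrays lay between 7.79 and 7.84. Medium spiny neuron markers were as the label says: the dopamine receptor gene Drd1 averaged 13.57 ± 0.40 at 6 h and 13.77 ± 0.42 at 1 h (SD, n = 10 each). It lay between 12.67 and 14.13 in the 20 arrays, against 9.73 to 12.36 in the CeA arrays of the same times. The ranges of Ppp1r1b, Drd2, Rgs9 and Tac1 did not overlap between the regions either, while those of Penk, Pdyn and Adora2a did. The regions appear to have been normalized separately, so levels set across them are descriptions. Among all NAc shell arrays, 5 correlated less with the others (median r of 0.984 to 0.989, against 0.990 to 0.995). They were 2 ethanol arrays at 6 h (title numbers 43 and 44), 1 at 1 h (number 33) and 2 at 24 h. Array 44 also read 11.39 for Slc17a7, the vesicular glutamate transporter of cortical neurons, where the next array at 6 h read 7.78 and the highest at 1 h read 8.78. Tbr1, a transcription factor of cortical neurons, was dim everywhere and also highest in array 44, at 5.46, where the next array at 6 h read 5.33 and the highest at 1 h 5.30. Neither gene passed the filter on low values. The mean level of the 7 cortical neuron markers that passed it lay between 9.32 and 9.65 at 6 h and between 9.38 and 9.76 at 1 h. The part of these arrays in the results was not tested beyond leaving them out.

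At 6 h, 2 probe sets had fallen and 0 had risen relative to 1 h in ethanol rats (limma, Benjamini-Hochberg adjusted p under 0.05). They are 0.0107% of the 18625 probe sets tested, and neither carries a gene symbol in the annotation used here. The probe set 1390223_at read 7.57, 7.90 and 8.04 (lowest, median and highest) at 6 h, against 8.05, 8.31 and 8.48 at 1 h. The groups did not overlap, and 1390223_at fell by 0.44 on the log2 scale (SE 0.07, adjusted p = 0.00789), to 0.740 of its 1 h level. The other, 1378261_at, read 6.86, 7.50 and 7.74 at 6 h, against 7.61, 7.96 and 8.24 at 1 h. All but 1 of the 6 h arrays lay below every 1 h array, and it fell by 0.52 (SE 0.10, adjusted p = 0.0275). Both are dim, near the array medians. Without the low-correlation arrays 3 probe sets passed, among them 1390223_at at -0.39 ± 0.08 and 1378261_at at -0.53 ± 0.10 (adjusted p = 0.0496 each, limma). In the fit of these 20 arrays alone neither passed (adjusted p = 0.0599 and 0.0877). 1378261_at was also lost when any of 6 single arrays was left out, numbers 32, 35, 36 or 38 of the 1 h group or 47 or 48 of the 6 h group.

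With the 2 that passed included, 700 probe sets (3.76%) had an unadjusted p under 0.05, below the share of 0.05 that chance gives on average. Of these, 526 (2.82%) were lower and 174 (0.934%) higher at 6 h. This lean was not kept in every setting: 356 were lower and 328 higher with quantile normalization repeated, and 663 lower and 643 higher without the filter on low values. Without array 32 of the 1 h group 842 were lower and 229 higher. The median change of all probe sets was -0.02, and 58% lay below 0. With the variance pooled over all NAc shell groups, 10 against 10 arrays gave a median standard error of 0.086 per probe set. In simulated data of the same layout, with independent noise per probe set, the test recovered 80 of 100 probe sets changed by 0.50 and 27 of 100 changed by 0.25. Most changes of 0.25 were thus not detectable at this number of arrays. The adjustment is milder where many probe sets change, as in the simulation. With only 2 passing here, the share recovered in these data may have been lower at both sizes.

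Of the genes with a symbol, none passed, and the 8 of smallest p are described here. Mmp14 (1367860_a_at), a membrane-bound matrix metalloproteinase that cleaves collagen around the cell, read 7.37, 7.51 and 7.81 at 6 h, against 7.12, 7.23 and 7.33 at 1 h. It had the smallest p of them, at 0.32 ± 0.06 (SE, adjusted p = 0.0501). All 10 arrays at 6 h lay above all 10 at 1 h, and groups without overlap occurred in 2 probe sets (0.0107%), Mmp14 and, in the other direction, 1390223_at. Mmp14 is dim, below the array medians. It passed in 2 of 20 omissions of a single array, those of array 44 and array 45 (adjusted p = 0.0365 and 0.0343, limma). In the others the adjusted p rose as high as 0.134.

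Sgk1 (1367802_at), a kinase induced by serum and glucocorticoids, read 11.01, 11.77 and 11.98 at 6 h, against 11.85, 12.37 and 12.69 at 1 h. The difference was -0.62 ± 0.13 (adjusted p = 0.0727), a level 0.649 times that at 1 h, and 8 of the 6 h arrays lay below every 1 h array. Sgk1 passed in 1 of 20 omissions of a single array, that of array 32 of the 1 h group (adjusted p = 0.0447, limma). In the others the adjusted p rose as high as 0.236. Slc2a1 (1370848_at), the glucose transporter GLUT1 of brain vessels and glia, read 10.43, 10.73 and 10.96 at 6 h, against 10.94, 11.05 and 11.24 at 1 h. Here 9 of the 10 arrays at 6 h lay below every 1 h array, and the difference was -0.35 ± 0.08 (adjusted p = 0.0848).

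**Figure D1:**
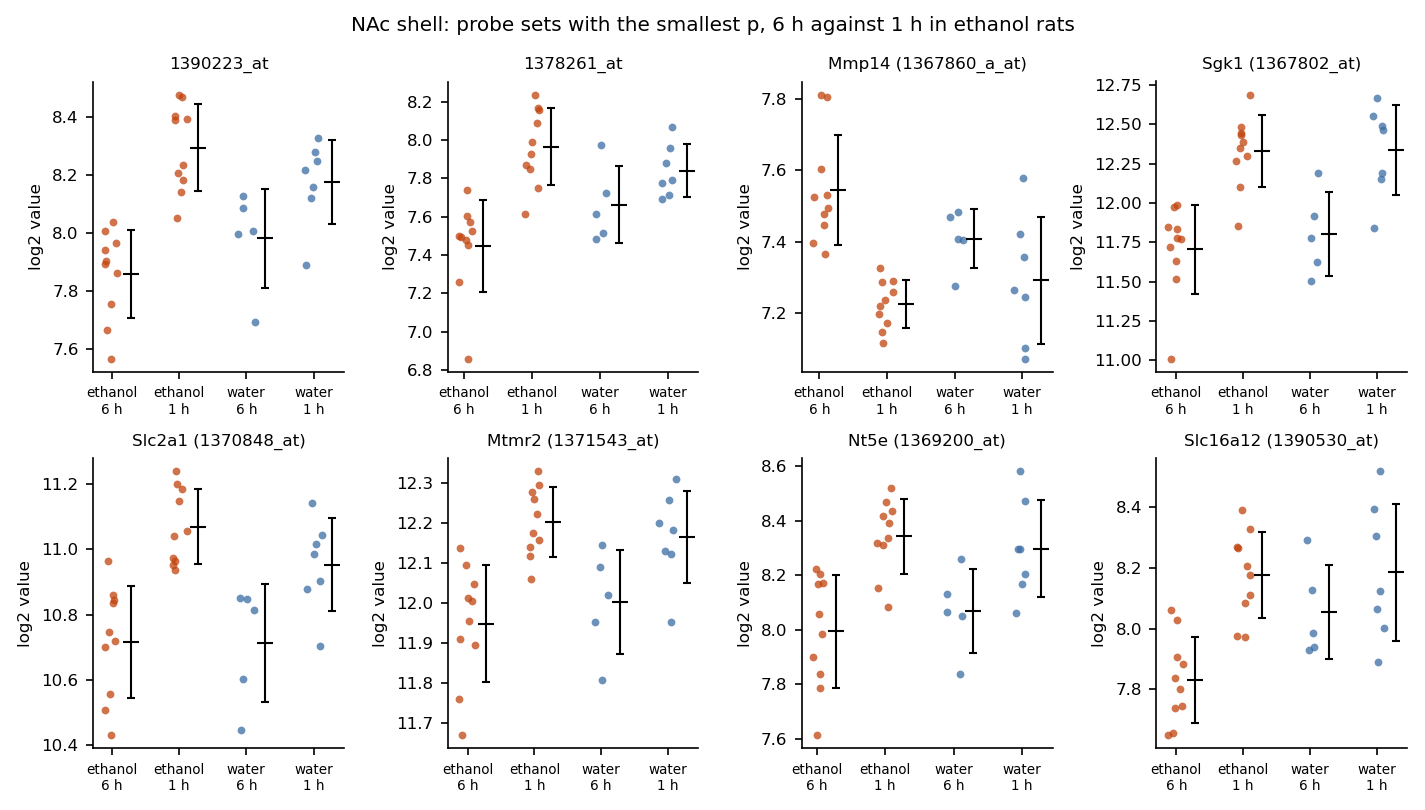
Log2 values (vertical axis) of the 2 probe sets that passed and of 6 genes with the smallest p values in the NAc shell, 1 point per array, in ethanol rats (orange) and water rats (blue) at 6 h and 1 h. Bars give the mean ± SD, and the ethanol groups of 1390223_at and Mmp14 do not overlap while those of the other probe sets do.

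Mtmr2 (1371543_at), a phosphatase of membrane phosphoinositides, was at -0.25 ± 0.06 (adjusted p = 0.207). Nt5e (1369200_at), the ectoenzyme CD73 that makes adenosine from AMP, was at -0.35 ± 0.09 (adjusted p = 0.407). Slc16a12 (1390530_at), a transporter of the monocarboxylate family, was at -0.35 ± 0.09. Ifngr1 (1369956_at), a chain of the interferon gamma receptor, was at -0.28 ± 0.07, and Rbm3 (1371583_at), an RNA-binding protein induced by cold, at -0.35 ± 0.09 (adjusted p = 0.464 for these 3). In each of these 5 genes all 10 arrays at 6 h lay below the median of the 1 h arrays. The genes were picked for small p values, which favours such a split. Among the 20 smallest p values 19 were lower at 6 h, and 9 belonged to probe sets without a single symbol, against 28.2% of all tested.

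Across the 6 NAc shell group means (ethanol and water at 3 times), the genes whose pattern was most like that of Mmp14 were Chst11 (1381767_at, r = 0.991), Defa5 (1387943_at, r = 0.979), Spsb1 (1393805_at, r = 0.975), Timm22 (1375565_at, r = 0.974) and Creb5 (1379629_at, r = 0.968). They were the highest such values, over 6 points, among the tested probe sets with 1 symbol. The 5257 of 18625 without 1 symbol were not ranked.

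Glucocorticoid-induced genes lay mostly below 0. Of 19 measured members, 15 were below 0 and 4 above, with a median of -0.17. Over all probe sets the median was -0.02 and 58% lay below 0. Unadjusted, 7 members (36.8%) were lower at p under 0.05 and 0 higher, and 0 passed. Over all probe sets 2.82% were lower at that p. After Sgk1 the smallest p values, on the brightest probe set of each gene, belonged to Pdk4 and Nfkbia. Pdk4 (1378074_at), a kinase that shuts off pyruvate dehydrogenase, read 7.48, 8.17 and 8.56 at 6 h, against 8.28, 8.75 and 9.57 at 1 h. The groups overlapped, with 6 of the 6 h arrays below every 1 h array, and the difference was -0.71 ± 0.22 (p = 0.00184, adjusted p = 0.767). Nfkbia (1389538_at), the inhibitor that holds NF-kappaB in the cytoplasm, read 7.62, 7.97 and 8.26 at 6 h, against 8.03, 8.28 and 8.71 at 1 h. Its difference was -0.37 ± 0.11 (p = 0.00194).

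Ddit4 (1368025_at), an inhibitor of mTORC1, was at -0.51 ± 0.17, and Tsc22d3 (1367771_at), the leucine zipper protein GILZ, at -0.28 ± 0.09. Errfi1 (1373093_at), an inhibitor of the EGF receptor, was at -0.20 ± 0.08. Cdkn1a (1388674_at), the cell cycle inhibitor p21, differed by -0.17 ± 0.06, with 9 of the 6 h arrays below every 1 h array. These 4 completed the 7 with an unadjusted p under 0.05. The co-chaperone Fkbp5 gave 2 readings, -0.19 ± 0.12 on its brighter probe set (1388901_at, p = 0.133) and -0.43 ± 0.12 on the dimmer one (1380611_at, p = 0.00128). The transcription factor Klf9 (1370209_at) was at -0.23 ± 0.12 and the clock repressor Per1 (1374855_at), which glucocorticoids also induce, at -0.21 ± 0.11. Dusp1 (1368146_at), a MAP kinase phosphatase, was at -0.15 ± 0.16 and Arrdc2 (1383608_at) at -0.09 ± 0.13.

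The remaining 7 members lay between -0.05 and 0.11. The metallothioneins Mt2A (1388271_at) and Mt1 (1388267_a_at) were at -0.05 ± 0.12 and 0.01 ± 0.07, glutamine synthetase Glul (1367632_at) at -0.04 ± 0.07 and the connexin Gjb6 (1368577_at) at -0.04 ± 0.17. Bcl6 (1379368_at), a transcriptional repressor, was at 0.04 ± 0.09, the lipid droplet protein Plin4 (1372856_at) at 0.11 ± 0.07 and the sulfotransferase Sult1a1 (1370019_at) at 0.11 ± 0.12. Further probe sets of Glul read -0.12 and 0.00. Leaving out single arrays gave 6 to 9 members lower at an unadjusted p under 0.05, and leaving out the low-correlation arrays gave 7.

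The clock output list was below 0 in 10 of 11 members, against 58% of all probe sets, with a median of -0.17. It also holds the cold-induced Rbm3 and Cirbp and the glucocorticoid-induced Tsc22d3, so its counts are not of clock-driven genes alone. In this list 6 members (54.5%) were lower at an unadjusted p under 0.05, against 2.82% of all probe sets, 0 were higher and 0 passed. Rbm3 and Tsc22d3 were among these members, and Tsc22d3 stands in the glucocorticoid list too. Dbp (1387874_at), a transcription factor that binds D-box elements, read 10.21, 10.72 and 10.90 at 6 h, against 10.81, 10.95 and 11.29 at 1 h. All but 1 of its 6 h arrays lay below every 1 h array, and the difference was -0.36 ± 0.09 (p = 0.000457, adjusted p = 0.501). Bhlhe40 (1369415_at), a repressor that competes for the E-box, varied widely, with 7.34, 8.23 and 9.07 at 6 h and 7.87, 8.70 and 9.14 at 1 h. Its groups overlapped over most of their range, at a difference of -0.53 ± 0.19 (p = 0.00631).

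Bhlhe41 (1368511_at), the close relative of Bhlhe40, was at -0.17 ± 0.07 (p = 0.0279), and the cell cycle kinase Wee1 (1370663_at) at -0.19 ± 0.09 (p = 0.0301). Wee1 was also read by 1397409_s_at, at -0.27 ± 0.14. Cirbp, another cold-inducible RNA-binding protein, was at -0.11 ± 0.09 on 1385904_at and at -0.42 ± 0.20 on 1382809_at (p = 0.0433). The D-box factors Hlf (1374709_at) and Tef (1390819_at) were at -0.16 ± 0.14 and -0.10 ± 0.09, and their further probe sets read -0.06 and -0.09 for Hlf and 0.04 for Tef. The ubiquitin protease Usp2 was at -0.04 ± 0.13 (1375549_at) and -0.10 ± 0.20 (1387703_a_at). Nfil3 (1368488_at), which represses at the D-box, was at 0.04 ± 0.08. Array 43 at 6 h was the lowest of its group for Wee1 and Hlf and array 44 for Bhlhe41, and without the low-correlation arrays 4 members in place of 6 had an unadjusted p under 0.05.

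Core clock genes had 9 of 13 members below 0, a median of -0.06, and 3 members (23.1%) lower at an unadjusted p under 0.05 with 0 higher. Over all probe sets 58% lay below 0 and 2.82% were lower at that p. Nr1d1 (1370816_at), which encodes the repressor REV-ERB alpha, read 7.77, 8.06 and 8.29 at 6 h, against 7.98, 8.37 and 8.58 at 1 h. The groups overlapped, and the difference was -0.28 ± 0.09 (p = 0.00208, adjusted p = 0.767). Its relative Nr1d2 (1390430_at) read 12.30, 12.54 and 12.81 at 6 h, against 12.59, 12.74 and 12.94 at 1 h. The difference was -0.22 ± 0.07 (p = 0.00226), and -0.25 ± 0.08 on 1370541_at.

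Among the period genes, Per2 (1368303_at) was at -0.19 ± 0.09 (p = 0.0387) and Per1 at -0.21 ± 0.11 (p = 0.0619). Per3 (1378745_at) was at -0.03 ± 0.10 and the second probe set of Per2 (1378560_at) at -0.01 ± 0.05. The cryptochromes were at -0.19 ± 0.09 for Cry2 (1372548_at) and 0.07 ± 0.10 for Cry1 (1392640_at), and the further probe set of Cry2 was at -0.12 ± 0.10. The kinases that phosphorylate the period proteins read -0.22 ± 0.11 for Csnk1e (1384161_at) and -0.05 ± 0.06 for Csnk1d (1373332_at), whose 4 further probe sets lay between -0.22 and 0.04. On the activator side, Bmal1 (1370510_a_at) was at 0.06 ± 0.08, Npas2 (1383439_at) at 0.07 ± 0.16, Clock at -0.06 ± 0.06 (1389456_at) and 0.06 ± 0.08 (1390199_at), and Rorb (1395023_at) at 0.31 ± 0.18. Leaving out single arrays moved the count of members lower at an unadjusted p under 0.05 between 2 and 6, and the low-correlation arrays to 4.

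**Figure D2:**
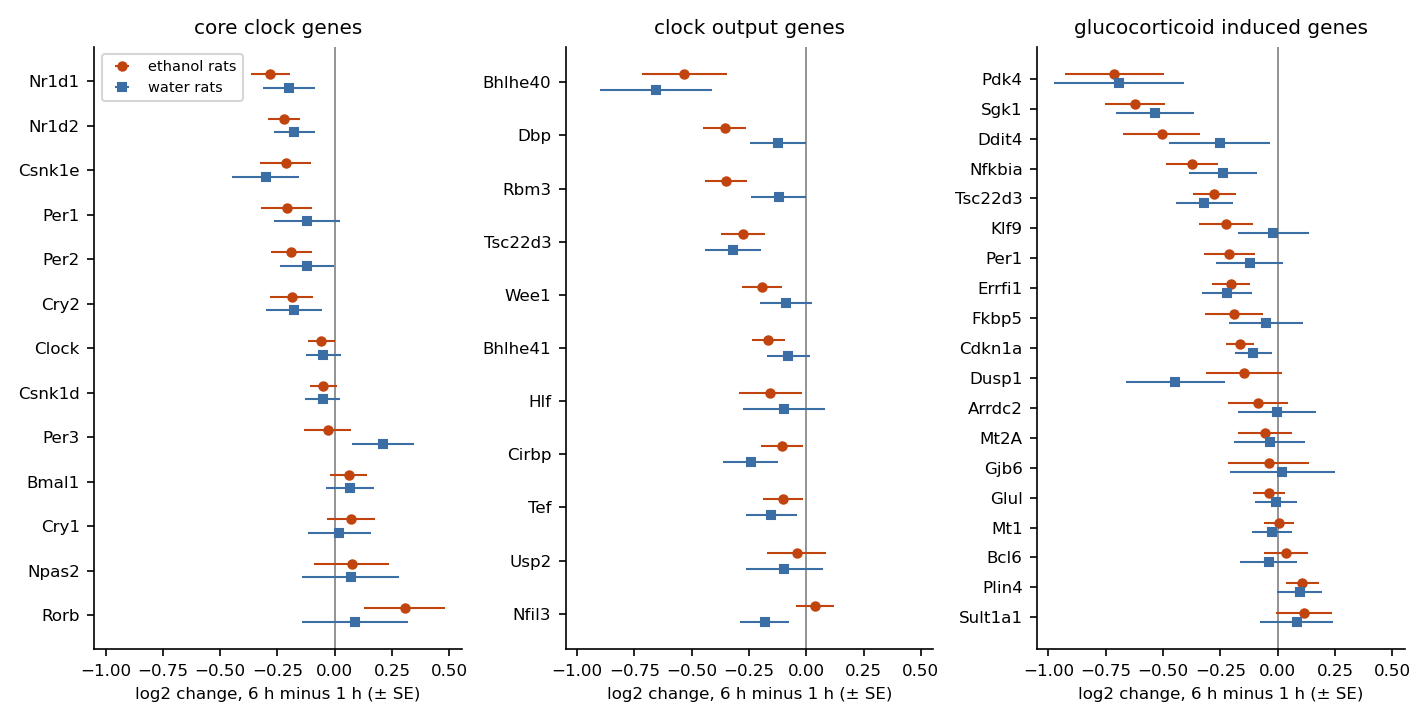
Log2 change at 6 h minus 1 h with its standard error (horizontal axis) for every measured member of the core clock, clock output and glucocorticoid lists, in ethanol rats (orange circles) and water rats (blue squares) of the NAc shell. Most clock output and glucocorticoid-induced genes lie left of 0 in both, from -0.71 for Pdk4 to 0.11 for Sult1a1 in ethanol rats.

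The 2 clock lists held 24 different measured genes, 9 of them with an unadjusted p under 0.05, and RefSeq promoter windows on GRCr8 (250 bases before to 50 after the start) were found for 8 of the 9. Both strands were searched for the E-box CACGTG bound by Clock and Bmal1, the D-box TTATGTAA bound by Dbp, the glucocorticoid response element AGAACA, any 3 bases and TGTTCT, and the cAMP response element TGACGTCA. Over all 33469 rat windows these were held by 6.42%, 0.893%, 0.0149% and 1.83%. The 4 windows that held any of them are shown because they carry the elements of the clock's own feedback, with the match in capitals, 5′ to 3′ along the gene. They were chosen after the values and matches were seen, and a match describes letters, not a bound site.
Nr1d1, E-box, chr10:84229405-84229704, minus strand: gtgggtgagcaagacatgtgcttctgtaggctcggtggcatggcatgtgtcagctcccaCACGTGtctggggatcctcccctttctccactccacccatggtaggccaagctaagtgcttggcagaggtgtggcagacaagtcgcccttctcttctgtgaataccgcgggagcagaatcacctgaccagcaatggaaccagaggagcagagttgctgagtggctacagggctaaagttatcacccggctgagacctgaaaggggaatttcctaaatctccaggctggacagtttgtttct
Bhlhe41, E-box, chr4:180569306-180569605, minus strand: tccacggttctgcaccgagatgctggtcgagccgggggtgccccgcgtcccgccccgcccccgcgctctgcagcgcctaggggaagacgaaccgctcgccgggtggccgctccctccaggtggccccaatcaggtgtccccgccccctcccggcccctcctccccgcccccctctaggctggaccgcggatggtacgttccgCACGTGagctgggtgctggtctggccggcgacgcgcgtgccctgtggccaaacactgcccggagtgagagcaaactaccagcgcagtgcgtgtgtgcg
Bhlhe40, E-box, chr4:143174200-143174499, plus strand: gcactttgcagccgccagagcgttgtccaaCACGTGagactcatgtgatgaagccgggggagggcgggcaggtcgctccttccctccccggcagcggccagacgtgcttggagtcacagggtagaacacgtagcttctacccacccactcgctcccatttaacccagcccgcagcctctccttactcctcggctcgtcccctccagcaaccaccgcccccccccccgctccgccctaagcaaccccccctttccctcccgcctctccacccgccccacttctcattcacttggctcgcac
Per2, D-box, chr9:99496944-99497243, minus strand: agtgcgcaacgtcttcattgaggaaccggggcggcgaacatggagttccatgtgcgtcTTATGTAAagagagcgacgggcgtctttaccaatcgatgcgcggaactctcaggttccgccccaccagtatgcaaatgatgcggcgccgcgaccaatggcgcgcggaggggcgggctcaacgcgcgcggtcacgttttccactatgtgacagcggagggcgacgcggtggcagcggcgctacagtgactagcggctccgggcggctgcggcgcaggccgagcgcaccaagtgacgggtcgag
Of 21 genes of the clock lists with a window, 4 held the E-box (Bhlhe40, Bhlhe41, Nr1d1 and Tef) and 1 the D-box (Per2). Of 21 glucocorticoid-induced genes, 0 held the full glucocorticoid response element in these 300 bases, 3 the E-box and 1, Dusp1, the cAMP response element.

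Immediate early genes were below 0 in 16 of 19 members, against 58% of all probe sets, with a median of -0.15. Of the 19, 2 (10.5%) were lower at an unadjusted p under 0.05, against 2.82% of all probe sets, and 0 passed. Klf4 (1387260_at), a Krüppel-like transcription factor, read 9.08, 9.71 and 10.18 at 6 h, against 9.60, 10.35 and 11.11 at 1 h, a difference of -0.62 ± 0.18 (p = 0.0012). Nr4a3 (1369067_at), an orphan nuclear receptor, read 8.83, 10.46 and 11.95 at 6 h, against 9.79, 11.05 and 12.04 at 1 h, a wide overlap, and was at -0.59 ± 0.28 (p = 0.0365). Its further probe sets read -0.37 ± 0.20 (1393389_at) and 0.01 ± 0.23 (1369217_at).

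Some genes outside the rule for naming had larger differences and were picked after their values were seen. Homer1 encodes postsynaptic scaffold proteins in long forms and a short form induced by activity, and which form each of its 4 probe sets reads was not worked out here. The probe set 1370997_at gave the largest negative difference of all probe sets tested. It read 7.52, 8.64 and 9.66 at 6 h, against 8.14, 9.93 and 11.53 at 1 h. The groups overlapped widely, at -1.14 ± 0.32 (p = 0.000991, adjusted p = 0.691). The other 3 read -0.69 ± 0.31 (1370454_at), -0.23 ± 0.20 (1370656_a_at) and -0.14 ± 0.15 (1368318_at). Klf2, an endothelial Krüppel-like factor, was at -0.51 ± 0.14 (p = 0.000845) on 1376569_at and 0.03 ± 0.06 on the dimmer 1375248_at, and the zinc finger gene Zfp189 (1376628_at) was at -0.54 ± 0.16 (p = 0.0012). Beyond 0.50 in size lay 26 probe sets below 0 and 5 above.

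Among chaperones, members with an unadjusted p under 0.05 lay on both sides. Of 20 genes of the endoplasmic reticulum, where secreted proteins fold, 13 were above 0 (median 0.04), 3 were higher and 1 lower at an unadjusted p under 0.05, and 0 passed. Over all probe sets 58% lay below 0, and 0.934% were higher and 2.82% lower at that p. The calcium-binding chaperone Calr (1398750_at) read 11.19, 11.36 and 11.56 at 6 h, against 11.03, 11.21 and 11.36 at 1 h. The arrays overlapped in part, at a difference of 0.16 ± 0.06 (p = 0.00583). Sdf2l1 (1373043_at), a partner of the chaperone Hspa5, was at 0.26 ± 0.09 (p = 0.0059) and Hspa5 (1370283_at), also called BiP, at 0.17 ± 0.07 (p = 0.0219). Herpud1 (1367741_at), which acts in the degradation of misfolded proteins, was at -0.17 ± 0.07 (p = 0.0235).

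Cytosolic heat shock genes gave 2 higher and 2 lower of 18 (together 22.2%) at an unadjusted p under 0.05, and 0 passed. Of the 18, 10 were above 0 (median 0.01). Over all probe sets 58% lay below 0, and 0.934% were higher and 2.82% lower at that p. The small heat shock proteins Hspb1 (1367577_at) and Cryab (1370026_at) were at 0.24 ± 0.10 and 0.40 ± 0.16, and the J-domain cochaperones Dnajb4 (1372722_at) and Dnajb1 (1388722_at) at -0.13 ± 0.05 and -0.14 ± 0.06. Cryab is also abundant in oligodendrocytes, whose 13 markers had 0 members under that p and a median of -0.10.

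Endothelial and mural markers had 4 of 14 members (28.6%) lower at an unadjusted p under 0.05, 0 higher, and a median of -0.08, with 5 members above 0 (up to 0.14). Over all probe sets 2.82% were lower at that p. The tight junction gene Cldn5 (1374104_at) read 10.61, 11.06 and 11.32 at 6 h, against 10.98, 11.32 and 11.44 at 1 h. Its groups overlapped, at -0.27 ± 0.08 (p = 0.00209). The organic anion transporter Slco1a4 (1387093_at) was at -0.17 ± 0.07, the vessel protein Egfl7 (1370402_at) at -0.15 ± 0.06 and the adhesion molecule Esam (1388703_at) at -0.12 ± 0.05. In water rats 3 of the 14 were lower at that p, with Cldn5 at -0.29 ± 0.11, Egfl7 at -0.17 ± 0.08 and Esam at -0.17 ± 0.07, and the median was -0.03. The mean level of the 14 markers in ethanol rats lay between 8.60 and 8.95 at 6 h (median 8.79), against 8.76 to 9.01 at 1 h (median 8.85). Slc2a1, which vessels also express, was at -0.35 ± 0.08 in ethanol rats, and the part of vessels in its difference was not tested. In bulk tissue fewer cells of a type and less RNA per cell cannot be told apart.

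Interferon-regulated genes had 3 of 11 members (27.3%) lower at an unadjusted p under 0.05, against 2.82% of all probe sets. Their median was -0.04. Usp18 (1389034_at), which removes the ubiquitin-like protein ISG15, was at -0.29 ± 0.09 (p = 0.00157), Ifit2 (1384180_at) at -0.32 ± 0.10 (p = 0.0039) and Rtp4 (1379285_at), a receptor transport protein, at -0.19 ± 0.07 (p = 0.0164). Of 7 inflammatory genes 3 were lower at that p (median -0.14): Nfkbia, the adaptor Myd88 (1374468_at) at -0.14 ± 0.07 and the interleukin 6 receptor gene Il6r (1386987_at) at -0.20 ± 0.09. In array 44, Il6r was at 7.96, above the next 6 h array at 7.11.

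Dopamine and medium spiny neuron genes were below 0 in 19 of 20 members, against 58% of all probe sets, with a median of -0.16. Yet only Ppp1r16b (1372761_at, -0.18 ± 0.08, p = 0.0243) and Rasgrp2 (1374872_at, -0.40 ± 0.19, p = 0.0437) had an unadjusted p under 0.05. Over all probe sets 2.82% were lower at that p. The mean level of the 20 genes per array ran between 10.82 and 11.89 at 6 h (median 11.60) and between 11.02 and 11.99 at 1 h (median 11.76). Whether they move together between arrays was not tested. Striatal content of the dissected tissue was not measured otherwise.

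Single members of other lists had an unadjusted p under 0.05. They were the GABA-B receptor subunit Gabbr1 (1388039_a_at, -0.19 ± 0.09), the potassium channel Kcna1 (1370545_at, -0.34 ± 0.14), acetaldehyde dehydrogenase Aldh2 (1367999_at, -0.24 ± 0.12), thioredoxin reductase Txnrd1 (1398791_at, -0.35 ± 0.16) and the AMPA receptor scaffold Grip1 (1376988_at, 0.15 ± 0.07). Among 19 genes of glucose use 2 were lower at that p, Slc2a1 and Pdk4, and among 24 of RNA processing 1, Rbm3. No member under that p was found among 49 genes of oxidative phosphorylation (median 0.01), 25 of the proteasome, 23 cytosolic ribosomal proteins (median -0.01), 22 of cholesterol synthesis and uptake, 20 chromatin enzymes, 18 plasticity kinases, 16 of synaptic vesicle release, 14 neuropeptides or 7 endocannabinoid and opioid genes. The same held for the markers of oligodendrocytes (13), astrocytes (13, median -0.04), microglia (9, median 0.00), meningeal fibroblasts (7) and choroid plexus (3). It also held for those of cortical neurons (7), septum with hypothalamus and thalamus (9), and blood (1). Over all probe sets 3.76% had an unadjusted p under 0.05. A count of 0 in lists of these sizes is near that share and is no result about them.

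**Figure D3:**
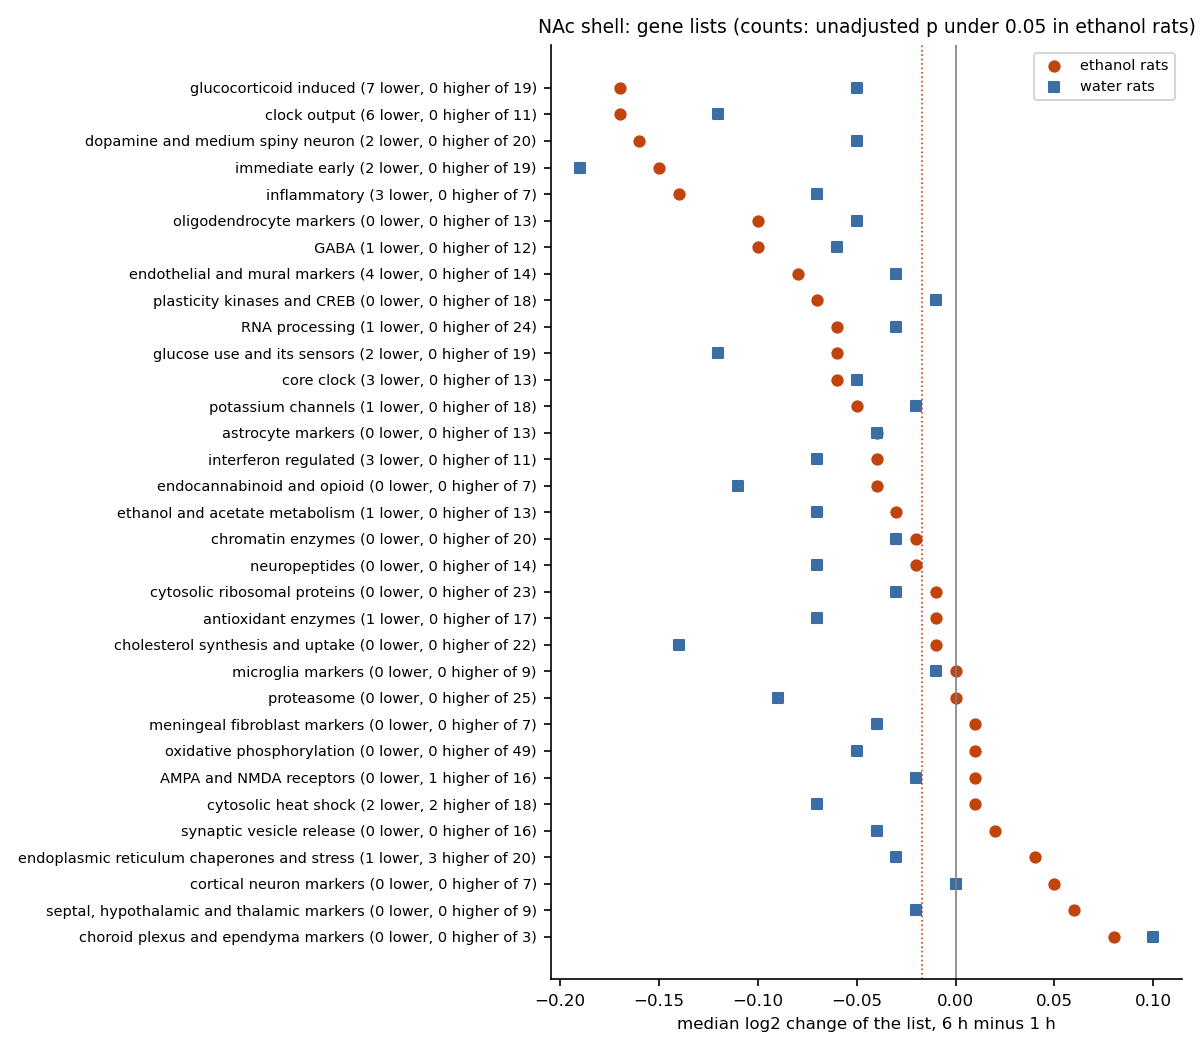
Median log2 change at 6 h minus 1 h (horizontal axis) of each gene list with at least 3 measured members in the NAc shell, in ethanol rats (orange circles) and water rats (blue squares), with counts of members at an unadjusted p under 0.05 in ethanol rats. The dotted line is the median of all probe sets in ethanol rats, and the glucocorticoid and clock output lists stand lowest at -0.17.

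Water rats taken at the same hours ask whether the differences go with drinking. Their 6 h and 1 h arrays share none with the ethanol comparison. In water rats 0 of 18625 probe sets (0.0%) passed in limma, with 782 (4.2%) at an unadjusted p under 0.05, of which 546 (2.93%) were lower. The test of the difference between ethanol and water changes also passed 0 (0.0%). Its 204 (1.1%) at an unadjusted p under 0.05 lay below the chance share of 0.05. The count of 204 became 475 with array quality weights and 810 with the Gapdh covariate given with the RNA controls. The median standard error of this test, 0.142, leaves differences of the size seen here mostly undetectable.

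All of the 8 genes of smallest p in ethanol rats had the same sign in water rats, at differing sizes. Sgk1 averaged 11.80 at 6 h and 12.34 at 1 h in water rats, a difference of -0.53 ± 0.17, against -0.62 in ethanol rats (p of the difference 0.675). Pdk4 was at -0.69 ± 0.28 in water rats, against -0.71 in ethanol rats (p = 0.955). The other genes of smallest p were smaller in water rats: Mtmr2 was at -0.16 ± 0.08, Nt5e at -0.23 ± 0.12, Slc16a12 at -0.13 ± 0.12, Rbm3 at -0.12 ± 0.12 and Ifngr1 at -0.06 ± 0.10, and so was Dbp at -0.12 ± 0.12. Slc2a1 was at -0.24 ± 0.10 in water rats, Bhlhe40 at -0.66 ± 0.24, Klf4 at -0.69 ± 0.24, Klf2 at -0.65 ± 0.19 and Homer1 (1370997_at) at -1.76 ± 0.42. The 2 probe sets that passed were smaller in water rats, -0.20 ± 0.10 for 1390223_at and -0.18 ± 0.13 for 1378261_at, with a p of the difference of 0.0554 and 0.0392. Mmp14 was at 0.12 ± 0.08 there (p of the difference 0.0595), and all 5 of its water arrays at 6 h lay within the range of those at 1 h. None of these differences passed the adjustment. Probe sets chosen for a small p in ethanol rats are favoured by that choice to be smaller in other arrays, so these p values are no test of an ethanol effect.

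Over all probe sets the changes of ethanol and water rats correlated with r = 0.39 (Spearman 0.36), across probe sets, which share arrays and are not independent. Of the 700 with an unadjusted p under 0.05 in ethanol rats, 576 (82.3%) had the same sign in water rats, against 62.3% of all tested. Glucocorticoid-induced genes had a median of -0.05 in water rats with 16 of 19 below 0, and clock output genes a median of -0.12 with 11 of 11 below 0. Over all probe sets the median in water rats was -0.02 and 56.4% lay below 0. In both lists 0 members had an unadjusted p under 0.05 for the difference between the changes. In water rats the Gapdh control probe sets at the 3 prime and 5 prime ends differed by 2.00 ± 0.19 at 6 h and 1.62 ± 0.08 at 1 h (SD, n = 5 and 7, exact permutation test, p = 0.00758, adjusted over 4 tests p = 0.0303). In ethanol rats they differed by 1.81 ± 0.26 at 6 h and 1.73 ± 0.24 at 1 h (permutation test, adjusted p = 0.768). With this difference as a covariate, 1048 probe sets had an unadjusted p under 0.05 in water rats, in place of 782, and 810 in place of 204 for the difference between ethanol and water changes. Still 0 passed in either (limma, smallest adjusted p = 0.0728 and 0.192).

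**Figure D4:**
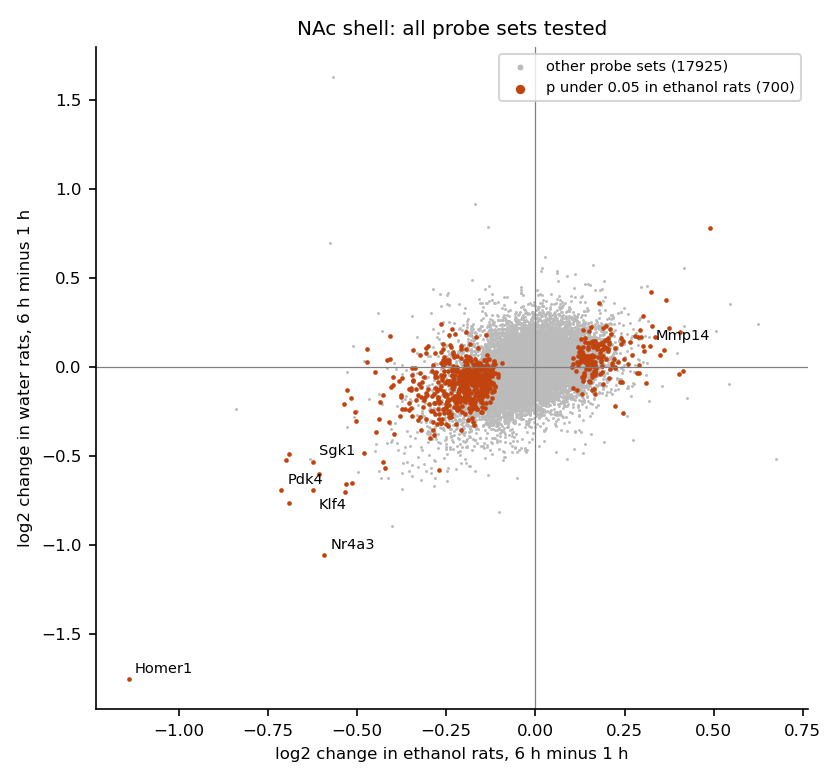
Log2 change at 6 h minus 1 h in ethanol rats (horizontal axis) against that in water rats (vertical axis) for all 18625 probe sets tested in the NAc shell. Orange points are the 700 with an unadjusted p under 0.05 in ethanol rats, and 576 of them lie on the same side of 0 in water rats.

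Among genes with a symbol, the smallest p values for a difference between ethanol and water changes belonged to small changes of opposite sign. Banf1 (1367820_at), a protein that binds DNA at the nuclear envelope, was at 0.13 ± 0.05 in ethanol rats, against -0.15 ± 0.07 in water rats (p = 0.0017). Dcaf15 (1376663_at), a substrate receptor of an E3 ubiquitin ligase, was at -0.13 ± 0.07 in ethanol rats and 0.21 ± 0.09 in water rats. Asph (1379884_at) was at 0.17 ± 0.07 in ethanol rats and -0.15 ± 0.09 in water rats, but its further probe sets read -0.15 and 0.18 in ethanol rats. Rftn1 (1391910_at), of lipid rafts, was at 0.16 ± 0.06 in ethanol rats and -0.13 ± 0.08 in water rats. Mzt2b (1392562_at) was at 0.02 ± 0.05 in ethanol rats and -0.24 ± 0.07 in water rats, and LOC100910973 (1372585_at) at 0.24 ± 0.11 in ethanol rats and -0.26 ± 0.14 in water rats. None passed (adjusted p = 1.00).

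In the CeA of ethanol rats the same times allow a look at the same genes in other tissue, though the labels do not say whether the regions came from the same rats. There 10 of 19678 probe sets (0.0508%) passed at 6 h against 1 h. Among them were 1390223_at at -0.75 ± 0.08 (adjusted p = 6.03e-10), Mmp14 at 0.36 ± 0.06 (adjusted p = 0.00105), Sgk1 at -0.73 ± 0.16 (adjusted p = 0.0374), Nr1d1 at -0.48 ± 0.08 (adjusted p = 0.00105) and Nr1d2 at -0.32 ± 0.06 (adjusted p = 0.0053). 1378261_at was at -0.38 ± 0.11 there (adjusted p = 0.65). Of the 700 NAc shell probe sets with an unadjusted p under 0.05, 534 (76.3%) had the same sign in the CeA, against 54.5% of all tested, and r over all was 0.21.

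The test of NAc shell against CeA changes passed 0 probe sets (0.0%). At an unadjusted p under 0.05 it held 152 (0.772%), below the chance share of 0.05. Among genes with a symbol, its smallest p values belonged to the zinc finger gene Zfp68 (1392835_at) and to Stard8 (1377923_at). Zfp68 was at -0.21 ± 0.07 in the NAc shell, against 0.07 ± 0.06 in the CeA. Stard8 was at -0.19 ± 0.07 in the NAc shell, against 0.17 ± 0.08 in the CeA. The exonuclease Eri1 (1392508_at), the thyroid hormone transporter Slco1c1 (1370205_at) and Bend6 (1376027_at) were at -0.13, -0.15 and -0.19 in the NAc shell, against 0.18, 0.17 and 0.09 in the CeA. Ly6h (1376253_at), a neuronal surface protein, was at 0.30 ± 0.14 in the NAc shell, against -0.32 ± 0.16 in the CeA. Slc2a1 was at -0.35 in the NAc shell, against -0.17 ± 0.10 in the CeA (p of the difference 0.233). The probe set 1390223_at, without a symbol and so not ranked here, was at -0.44 ± 0.07 in the NAc shell. In the CeA it was at -0.75 ± 0.08 (limma, p of the difference 0.00983).

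The 24 h arrays place these levels in a series of times. Sgk1 averaged 12.33 ± 0.23, 11.71 ± 0.28 and 12.64 ± 0.40 at 1, 6 and 24 h in ethanol rats (SD, n = 10, 10 and 11). Pdk4 averaged 8.83 ± 0.39, 8.12 ± 0.37 and 9.32 ± 0.76, Slc2a1 11.07 ± 0.11, 10.72 ± 0.17 and 11.03 ± 0.20, and Nr1d1 8.35 ± 0.17, 8.06 ± 0.19 and 8.41 ± 0.25. Mmp14 averaged 7.22 ± 0.07, 7.55 ± 0.15 and 7.31 ± 0.14, and 1390223_at 8.29 ± 0.15, 7.86 ± 0.15 and 8.19 ± 0.18. These genes were chosen for their 6 h difference. The 24 h comparison with 1 h uses the same 1 h arrays and had 0 passing probe sets. In it 522 of 18625 had an unadjusted p under 0.05, below the chance share of 0.05.

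**Figure D5:**
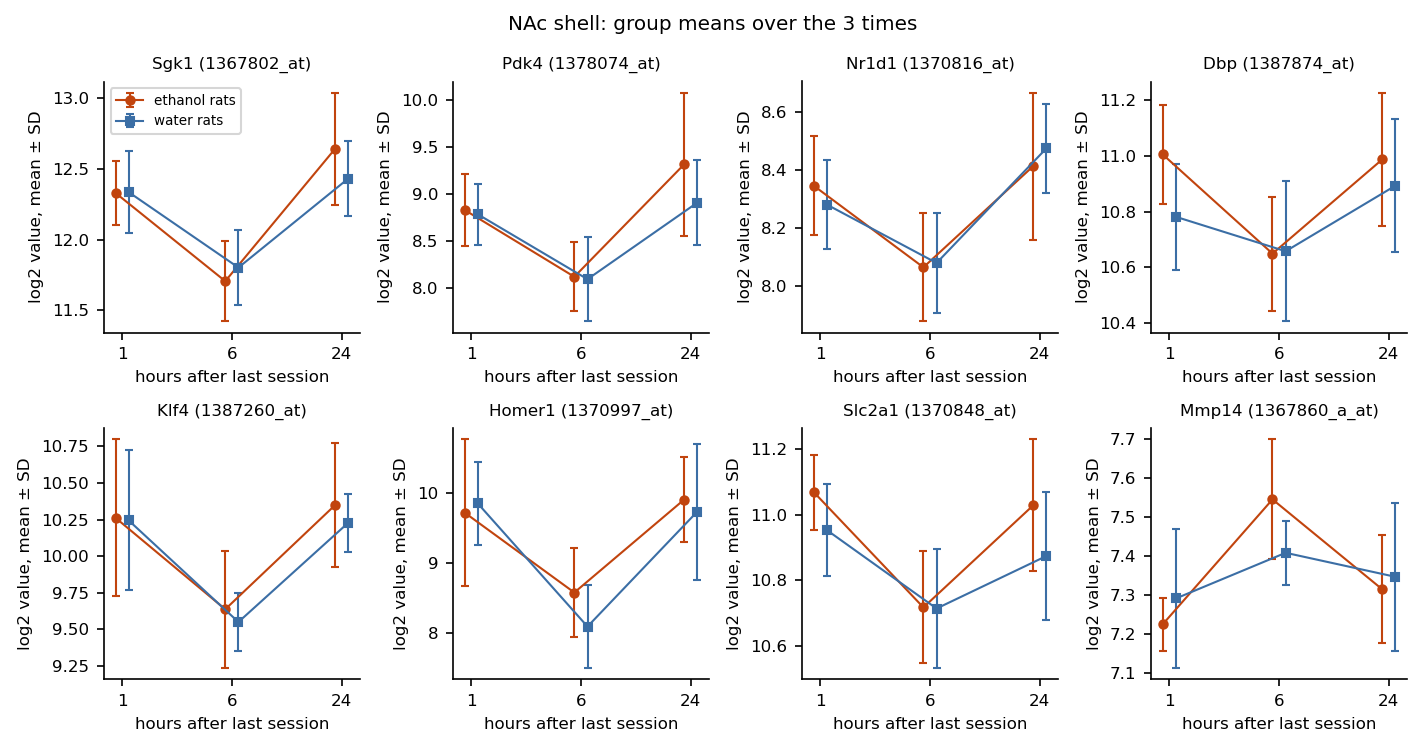
Mean log2 value ± SD (vertical axis) at 1, 6 and 24 h after the last session in the NAc shell of ethanol rats (orange circles) and water rats (blue squares) for 8 probe sets. In ethanol rats Sgk1, Pdk4, Nr1d1, Dbp, Klf4, Homer1 and Slc2a1 are lowest at 6 h, and Mmp14 is highest at 6 h.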

How the data were processed

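Per the labels' protocols, Trizol and RNeasy columns yielded the RNA, of which 25 ng was labelled in 2 cycles. The deposited table holds log2 values that the authors made by RMA, per the submitters' processing notes; its version and any filter are not given in the sources used here. Arrays carry no read depth, and precision is limited by their number.

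Of 31042 probe sets without controls, 20826 carried 1 symbol in GEO's platform annotation, updated by Entrez ID. Of the 31042, all with a mean above the 40th percentile of the NAc shell (7.09) were tested: limma 3.58.1 in R 4.3.3, means of the 6 NAc shell groups, trended variance, Benjamini-Hochberg adjustment, passing at adjusted p under 0.05. The comparison with the CeA used 1 fit of the 12 groups, as if arrays were independent.

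A list read each gene from its probe set with the highest mean. The text names passing probe sets, the 8 smallest p values with a symbol, and all members of the clock and glucocorticoid lists. Of each other list it names up to 4 by smallest p (kept, after values were seen, to an unadjusted p under 0.05). For each difference it names the 6 smallest p values with a symbol. Symbols beyond 0.50 with an unadjusted p under 0.05 were added after values were seen. The comparison, members and 34 lists were chosen with earlier results of these data known. The test was checked on simulated data. Permutations numbered 100000, or all possible, in SciPy 1.17.1.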

Additional observations from a re-analysis of the deposited data

Results flagged for a closer look

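Of 460 groups of named probe sets, 33 (7.17%) held an array far from the others of its group, where chance gives about 1 in 20. Many of these values came from the low-correlation arrays. At 6 h in ethanol rats, array 43 was lowest for Sgk1 (11.01, next 11.52), Npas2 (10.56), Wee1 (9.85 on 1370663_at and 9.04 on 1397409_s_at), Hlf (10.45), Csnk1d (7.89 on 1370819_at) and Homer1 (8.63 on 1370656_a_at and 10.53 on 1368318_at). Array 44 was lowest for Per3 (9.12), Bhlhe41 (12.53) and Tef (7.74 on 1385374_at), and highest for Il6r (7.96) and Homer1 (11.78 on 1370454_at). At 1 h, array 33 was lowest for Usp2 (8.87) and Homer1 (9.29 on 1370656_a_at and 11.12 on 1368318_at), and highest for Csnk1d (7.87 on 1370528_at).

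The other ethanol arrays at 1 h that stood apart were number 40 for Stard8 (8.85, highest), Ddit4 (8.62, lowest) and Aldh2 (9.51, lowest), and number 34 for Per1 (10.58, highest), Dnajb1 (12.02, lowest) and Herpud1 (10.61, lowest). Number 35 was highest for Rftn1 (7.65) and number 32 for Bcl6 (11.54). In water rats at 6 h, number 26 was highest for Rbm3 (13.03) and Per2 (11.45) and number 27 for Nfil3 (8.82), while number 29 was lowest for Homer1 (9.36 on 1370656_a_at). In water rats at 1 h, number 24 was lowest for Klf4 (9.19) and Klf2 (9.30), number 20 for Bend6 (11.07) and number 18 for Grip1 (6.96).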

How the results depend on the processing

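The count of 2 passing probe sets (0 higher, 2 lower) was 7 (1 higher, 6 lower) at an adjusted p under 0.10 and 1 (1 lower) at an adjusted p under 0.01. It was 0 (0 lower) with 1 probe set per gene, with only the arrays of the groups compared, and with the filter at the 60th percentile. The setting of 1 probe set per gene takes only probe sets with a symbol, so the 2 passing ones were not tested there. The filter at the 60th percentile also removed both before testing, so these 2 settings do not retest them. The count was 3 without a filter (1 higher), 4 with quantile normalization repeated (1 higher), 7 with array quality weights (1 higher, 6 lower), and 3 without the low-correlation arrays. Leaving out single arrays gave 1 to 4 passing, 0 to 1 higher and 1 to 3 lower. The extremes were 1 without 1 h arrays 35, 36 or 38 or 6 h arrays 47 or 48, and 4 without 6 h array 44. Water rats and the ethanol minus water difference passed 0 in every setting run, single-array omissions included, and the NAc shell minus CeA difference in the 8 alternatives run, which left out no single array. At an unadjusted p under 0.05, omissions gave 362 to 842 lower and 133 to 242 higher in ethanol rats. Sgk1 and Mmp14 passed with quantile normalization repeated (adjusted p = 0.0434 each, limma), and Sgk1, Mmp14 and Slc2a1 with array weights (adjusted p = 0.0409, 0.0161 and 0.0409). Over 115 named probe sets and 29 settings, 3205 of 3274 values kept their direction and call, 8 lost it, 8 gained it and 53 changed sign, in probe sets whose difference was at most 0.07. With quantile normalization repeated, Per2 (1378560_at) was at 0.01 and Glul (1386870_at) at 0.03. With array quality weights, Klf2 (1375248_at) was at -0.0036, Per3 at 0.04, Glul (1386870_at) at 0.02, Mt1 at -0.02 and Clock (1389456_at) at 0.0039. With the Gapdh difference as a covariate, Tef (1385374_at) was at -0.0038, Glul at 0.0096 and Mt1 at -0.01. Without the low-correlation arrays, Nr4a3 (1369217_at) was at -0.02, Per3 at 0.06, Bcl6 at -0.02, Glul at 0.04 and Mt1 at -0.00086. Leaving out single arrays gave ranges across 0 for Per2 (1378560_at, -0.02 to 0.0069), Glul (1386870_at, -0.04 to 0.05), Mt1 (-0.02 to 0.03), Nr4a3 (1369217_at, -0.09 to 0.15), Npas2 (-0.03 to 0.20), Tef (1385374_at, -0.02 to 0.11), Gjb6 (-0.13 to 0.04), Per3 (-0.07 to 0.07), Mt2A (-0.12 to 0.0022), Bcl6 (-0.0068 to 0.09) and Mzt2b (-0.00012 to 0.04). The cause of these moves was not tested. No paired analysis was possible because the groups compared carry different title numbers. Dim probe sets and the number of arrays limit what could be detected.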
